A study of Mus musculus with 6 samples.

Results

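Osteopontin, the secreted glycoprotein encoded by Spp1, was followed together with 5 genes for its cell-surface receptors: Cd44, the integrin alpha chain gene Itgav and the integrin beta chain genes Itgb1, Itgb3 and Itgb5. These 6 genes were found by symbol among the 35275 genes listed for each library, and each symbol had a single row. They were chosen by the measured level of Spp1, which is among the most abundant transcripts of Ly6G-low libraries, so that level and the contrasts of Spp1 with the Ly6G-low cells are described without a test. RNA came from cells that the labels call myeloid, flow-sorted from digested subcutaneous tumours of CT26, a mouse colon carcinoma line, which had grown to 1800 mm3 in BALB/C mice, with no genetic change or drug given in the labels. Ly6G is a surface antigen of mouse neutrophils, and T1 is an aptamer, a folded nucleic acid that attaches to cells. One population was Ly6G-low and bound T1 (Ly6G-low cells), another was Ly6G-high and bound T1 (Ly6G-high binders), and the last was Ly6G-high and did not bind T1 (Ly6G-high non-binders). Each population was taken from the same 2 tumour-bearing mice, which gave 6 RNA-seq libraries of 23595976 to 28045025 counted reads, and other gating markers and the purity of the sorts are not given in the sources used here. The design sets binders against non-binders within the Ly6G-high gate, and the Ly6G-low cells against each Ly6G-high population.

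Osteopontin is an acidic phosphoprotein of bone matrix that macrophages, tumour cells and other cells also secrete. Its arginine-glycine-aspartate motif is bound by integrins in which the alpha v chain (Itgav) pairs with the beta chain of Itgb1, Itgb3 or Itgb5, while CD44, the main hyaluronan receptor, has been reported to bind it without that motif. In tumours osteopontin is known for effects on adhesion, migration and survival of cells and for its production by tumour-associated macrophages. An integrin works at the surface as a pair of 1 alpha and 1 beta chain, so the transcript of either chain alone does not give the amount of a receptor.

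The genes lie on build GRCm38 (mm10), in the GENCODE M21 annotation, at chr5:104435118-104441050 for Spp1 (plus strand), chr2:102811141-102901665 for Cd44 (minus strand) and chr2:83724397-83806916 for Itgav (plus strand). Those of the beta chains are on the plus strand, at chr8:128685654-128733200 for Itgb1, chr11:104608000-104670476 for Itgb3 and chr16:33829665-33949338 for Itgb5. All are protein-coding.

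The codons of the integrin-binding motif are shown because all 4 integrin chains followed here are set against it. The stretch below is coding sequence of Spp1, 69 bases on the plus strand at chr5:104439451-104439519 of build GRCm38 with the GENCODE M21 annotation, and capitals mark the codons for arginine, glycine and aspartate.
Spp1 coding stretch: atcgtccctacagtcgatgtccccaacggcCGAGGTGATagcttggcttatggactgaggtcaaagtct
The motif was present in 6 of the 7 annotated Spp1 transcripts with a start codon. The bases just after the capitals encode the site that thrombin cleavage lays open to integrins containing Itga4 or Itga9, whose values are given further on.

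The upstream sequence of Spp1 is shown because this gene gave the most abundant transcript of the Ly6G-low libraries. It is the RefSeq sequence of build GRCm38.p6, 250 bases before the RefSeq gene start on the plus strand at chr5:104434861-104435110, and capitals mark the matches to 4 short motifs searched on both strands.
Spp1 upstream: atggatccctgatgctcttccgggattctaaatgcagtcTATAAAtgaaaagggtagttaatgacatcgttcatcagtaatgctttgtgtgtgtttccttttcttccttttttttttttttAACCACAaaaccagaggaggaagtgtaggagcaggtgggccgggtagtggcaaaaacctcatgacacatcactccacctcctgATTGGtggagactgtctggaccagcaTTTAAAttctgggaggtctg
From the far end, the capitals are TATAAA, 211 bases before the start, which 12.4% of 32851 upstream windows of the same length hold, and AACCACA, a RUNX motif 129 bases before it, held by 4.4%. They continue with ATTGG, the CCAAT box read on the other strand, 46 bases before the start and held by 33.8%, and with TTTAAA, 20 bases before it and held by 12.1%. None of these matches overlapped another, and TGANTCA, the AP-1 motif held by 6.75% of windows, was not found here. The window was 43.6% G and C, against a median of 52.4% over all windows, while the 4 receptor genes with an entry in the table had 56.4% (Cd44), 64.4% (Itgav), 65.2% (Itgb5) and 68.0% (Itgb1). A match is a description of letters and not evidence of binding.

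The sorted cells were checked against marker genes before the receptor values were read. The 8 neutrophil markers summed to 209 to 612 FPKM (read density per gene length and library total) in Ly6G-low libraries, 17372 to 20478 FPKM in Ly6G-high binder libraries and 44472 to 47154 FPKM in non-binder libraries, low where the gate was Ly6G-low. The 10 macrophage markers summed to 4466 to 7754, 15554 to 19709 and 7040 to 8833 FPKM in the same 3 populations, most of it from Lyz2. C1qa had 218 and 416, 654 and 1063, and 221 and 364 FPKM, so its Ly6G-low and non-binder values overlapped. Pan-leukocyte markers, which a myeloid sort should carry, were lower in the Ly6G-low libraries, at 884 to 1266 FPKM, against 4828 to 5205 and 4856 to 5746 FPKM in the Ly6G-high binder and non-binder libraries, and all 8 were called lower there in both contrasts. A gene is said to be called where its adjusted p in edgeR's test across all genes was under 0.05. The tumour or epithelial list ran the other way, at 166 to 181 FPKM in Ly6G-low libraries against 38.1 to 64.0 and 33.6 to 73.3 FPKM, and so did the fibroblast list, at 382 to 468 FPKM against 91.9 to 187 and 87.1 to 181 FPKM. Within the epithelial list, where Krt8, Krt18 and Krt20 carried most of the sum, Cdh1 ran against the sum, with 2.51 and 1.61 FPKM in Ly6G-low, 9.20 and 3.83 FPKM in Ly6G-high binders and 4.87 and 2.12 FPKM in non-binder libraries. Epcam stayed under 1 FPKM in every library, and Cldn4 had 5 and 0 counts in Ly6G-low libraries and 0 in the other 4. Osteoclast markers, listed because osteoclasts carry Itgb3, summed to 24.2 to 31.6 FPKM in Ly6G-low, 50.5 to 54.4 FPKM in Ly6G-high binders and 38.5 to 43.1 FPKM in non-binder libraries. Platelet markers summed to 399 to 450, 1059 to 1806 and 398 to 584 FPKM, most of it from Pf4. Ppbp had 29.5 and 14.5 FPKM in Ly6G-low, 174 and 61.0 FPKM in Ly6G-high binders and 61.8 and 24.8 FPKM in non-binder libraries. Itga2b, Gp9, Gp1bb and Gp1ba stayed under 1 FPKM. Endothelial markers were low throughout, at 4.14 to 4.54, 13.5 to 17.6 and 15.9 to 21.4 FPKM, most of it from Pecam1. These lists move with the contrasts below, and their part in any receptor result was not tested.

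**Figure D1:**
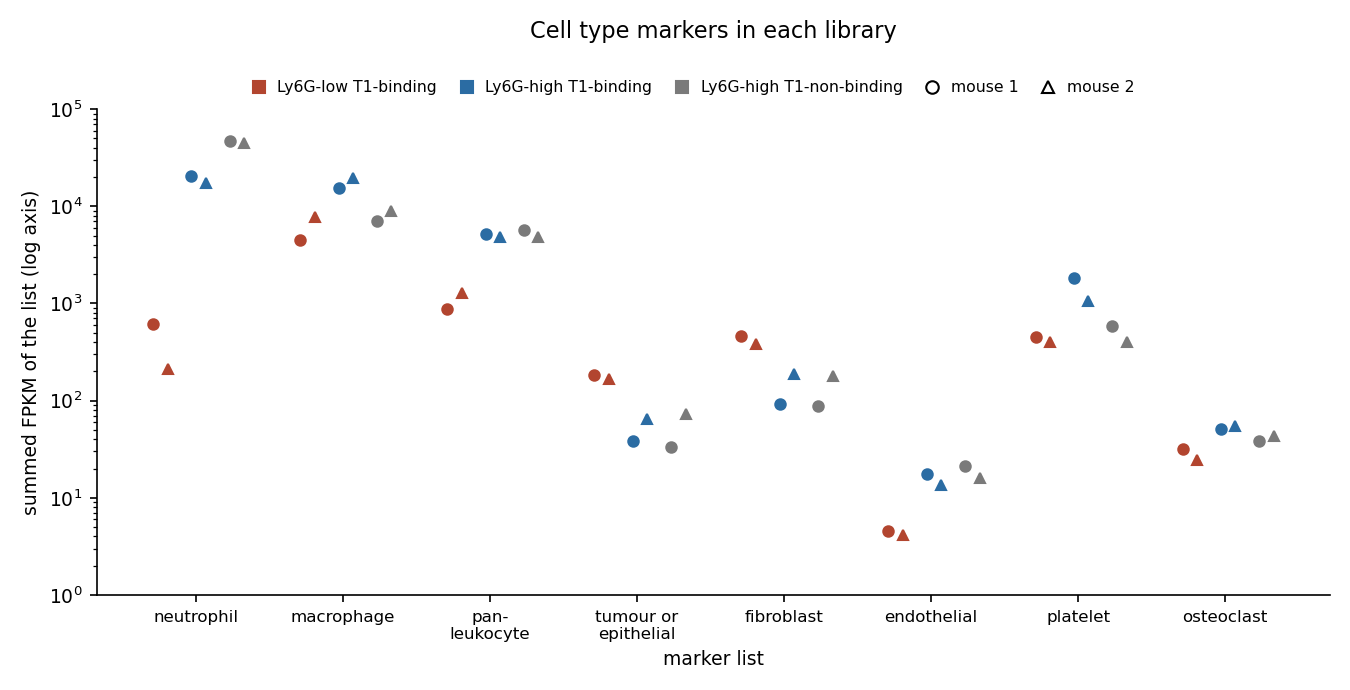
Summed FPKM of 8 marker lists (logarithmic vertical axis) in each library, coloured by sorted population and with a symbol for each mouse. Neutrophil markers are lowest in the Ly6G-low libraries (209 to 612 FPKM), which have the highest tumour or epithelial (166 to 181 FPKM) and fibroblast (382 to 468 FPKM) sums.

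Spp1 was the most abundant transcript by FPKM in both Ly6G-low libraries, with 9231 FPKM in mouse 1 and 7113 FPKM in mouse 2. In Ly6G-high binders it had 4237 and 3759 FPKM, which ranked it 10 and 13 in those libraries. In Ly6G-high non-binders it had 4085 and 4462 FPKM, at ranks 16 and 11. The 2 Ly6G-low values lay above the other 4, and the Ly6G-high populations overlapped. Spp1 took 1.39% and 1.07% of all counted reads in Ly6G-low, 0.638% and 0.567% in Ly6G-high binders and 0.616% and 0.672% in non-binder libraries, so osteopontin RNA was among the leading transcripts in the libraries of all 3 populations. Which cells in each sort made it was not tested. In bulk RNA, fewer cells of a type and less RNA per cell cannot be told apart, here or in the results that follow.

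The excess in Ly6G-low cells depended on how the libraries were put on a common scale. FPKM divides by the library's own total, whereas TMM scaling sets the bulk of genes level between libraries, and the scaling factors were 1.40 and 1.39 for Ly6G-low, 0.86 and 1.00 for Ly6G-high binders and 0.65 and 0.92 for non-binder libraries. With library totals the median log2 fold change of the 13883 tested genes was 0.20 for Ly6G-high binders over non-binders, 0.61 for Ly6G-low over Ly6G-high binders and 0.91 for Ly6G-low over Ly6G-high non-binders, against -0.05, 0.03 and 0.09 with TMM. On TMM-scaled counts (CPM), Spp1 had 9972 and 7732 CPM in Ly6G-low, 7442 and 5643 CPM in Ly6G-high binders and 9434 and 7333 CPM in Ly6G-high non-binders. On this scale the Ly6G-low values stood above the binder values and overlapped the non-binder values. The log2 fold change over Ly6G-high binders was 0.44 with TMM and 1.03 with library totals, and relative to the median gene it was 0.41 and 0.42. Over Ly6G-high non-binders it was 0.08 and 0.94, and relative to the median gene it was -0.01 and 0.02, so Spp1 differed there by about as much as the median gene.

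Cd44, the hyaluronan and osteopontin receptor, had its lowest level in the Ly6G-low cells. There Spp1 was highest by FPKM but overlapped the non-binders in TMM-scaled CPM. It had 240 and 230 FPKM in Ly6G-low cells, 379 and 288 FPKM in Ly6G-high binders and 479 and 404 FPKM in Ly6G-high non-binders, and no populations overlapped. In TMM-scaled CPM it had 964 and 933 in Ly6G-low, 2481 and 1611 in Ly6G-high binders and 4118 and 2476 in Ly6G-high non-binders. The Ly6G-low values were below all others on both scales, while the Ly6G-high populations overlapped in CPM at mouse 1 of the binders and mouse 2 of the non-binders. The counts are per gene (ENSMUSG00000005087), so the standard and variant-exon forms of CD44, which differ in their ligands, were not told apart.

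Itgav, the alpha chain that can pair with the beta chains of Itgb1, Itgb3 and Itgb5, was a modest transcript in every library. It had 15.4 and 20.5 FPKM in Ly6G-low, 16.7 and 13.7 FPKM in Ly6G-high binders and 11.9 and 9.41 FPKM in Ly6G-high non-binders. The binders and Ly6G-low cells overlapped, and both lay above the non-binder values on this scale, but in TMM-scaled CPM (77.9 and 104, 137 and 96.3, and 128 and 72.4) all 3 overlapped. Some exonic bases of Itgav lie opposite the gene Gm13684, which had 15 to 51 counts per library. Whether counting used strand is not given in the sources used here, so its reads and those of Itgav cannot be told apart where they overlap.

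Itgb1, the most widely used integrin beta chain, was the leading beta transcript throughout. It had 255 FPKM in both Ly6G-low libraries, 163 and 162 FPKM in Ly6G-high binders and 103 and 131 FPKM in Ly6G-high non-binders, without overlap between populations. After TMM scaling it was close to level, at 698 and 701 CPM in Ly6G-low, 726 and 616 CPM in Ly6G-high binders and 602 and 546 CPM in Ly6G-high non-binders.

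Itgb5, the beta chain of the vitronectin receptor that osteopontin also binds, came next among the beta chains. It had 75.6 and 91.7 FPKM in Ly6G-low, 67.8 and 83.3 FPKM in Ly6G-high binders and 35.1 and 47.6 FPKM in Ly6G-high non-binders. The binders and Ly6G-low cells overlapped and stood above the non-binder values. In TMM-scaled CPM it was highest in Ly6G-high binders, at 244 and 256, with 167 and 204 in Ly6G-low and 166 and 160 in Ly6G-high non-binders.

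Itgb3, the beta chain of the classical osteopontin receptor of osteoclasts and of the platelet fibrinogen receptor, was the scarcest of the 6 transcripts. It had 0.762 and 0.623 FPKM in Ly6G-low, 2.11 and 1.03 FPKM in Ly6G-high binders and 3.56 and 2.09 FPKM in Ly6G-high non-binders, from 90 to 487 reads per library. The Ly6G-low values were below the other 4, and the Ly6G-high populations overlapped. In TMM-scaled CPM it had 3.16 and 2.60 in Ly6G-low, 14.2 and 5.93 in Ly6G-high binders and 31.5 and 13.2 in Ly6G-high non-binders.

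By FPKM, which allows for gene length, the order within each Ly6G-high library was Spp1, Cd44, Itgb1, Itgb5, Itgav and Itgb3. In the Ly6G-low libraries Itgb1 stood above Cd44, by a small margin: the Cd44 level was 0.939 of the Itgb1 level in mouse 1 and 0.905 in mouse 2. Itgb1 and Itgb5 had more FPKM than their shared alpha v partner Itgav in every library, and Itgb3 had less.

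**Figure D2:**
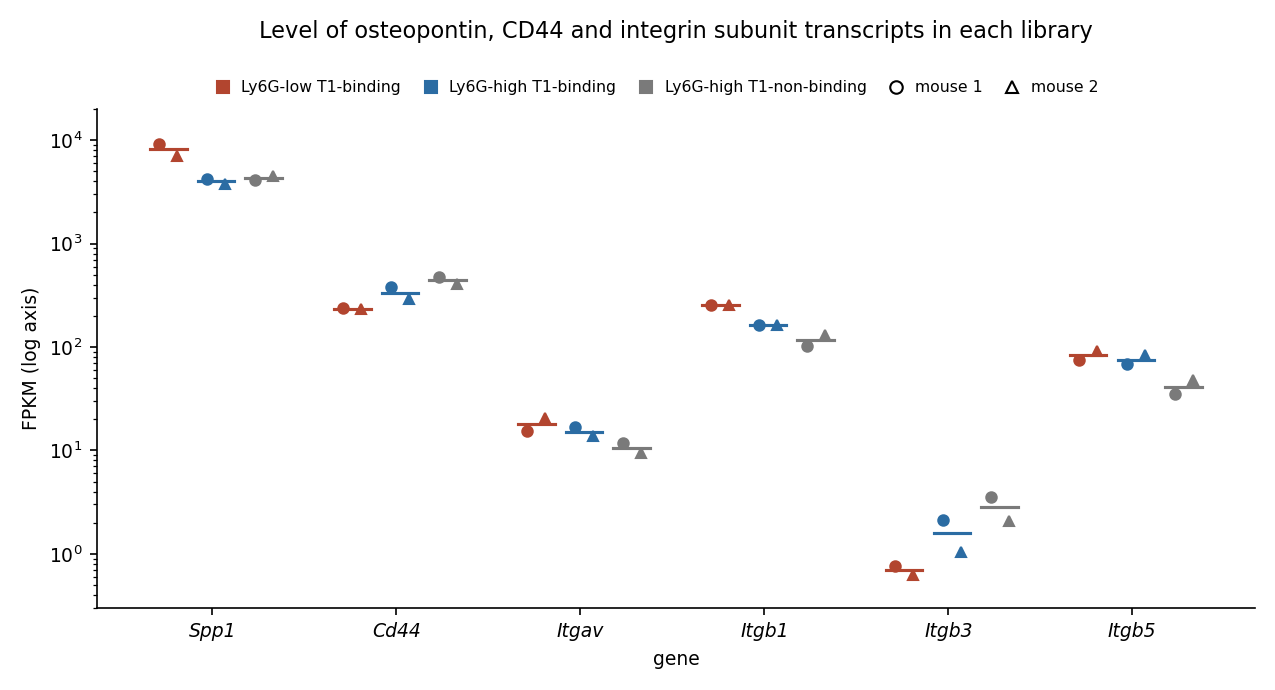
FPKM (logarithmic axis) of the 6 genes in each library, coloured by sorted population, with a symbol for each mouse and a line at the mean of 2 libraries. Spp1 lies between 3759 and 9231 FPKM and Itgb3 between 0.623 and 3.56 FPKM, and Cd44 and Itgb3 are lowest in Ly6G-low cells while Spp1 and Itgb1 are highest there on this scale.

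Between Ly6G-high binders and non-binders the fold changes of the 6 genes did not pass the test on 6 libraries. Each of the 6 had the same direction in both mice, and the share of all genes that do so was not computed. Deviations of the same mouse correlated at 0.51 between these gates. Itgb3 was 2.20-fold lower in the binders (log2 fold change -1.14 with an SE of 0.51, adjusted p = 0.444 by edgeR), at log2 differences of the libraries of -1.15 in mouse 1 and -1.15 in mouse 2. Cd44 was 1.61-fold lower (-0.69 ± 0.38 SE, edgeR adjusted p = 0.504), by -0.73 and -0.62 in the 2 mice. Itgb5 was 1.53-fold higher (0.62 ± 0.20, edgeR adjusted p = 0.385), by 0.55 and 0.68, and its binder values in CPM stood clear of the non-binder values. Spp1 had a log2 fold change of -0.36 ± 0.38 (edgeR adjusted p = 0.737), Itgav 0.22 ± 0.32 (edgeR adjusted p = 0.817) and Itgb1 0.23 ± 0.24 (edgeR adjusted p = 0.734).

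Of the 6 genes, 0 were called in this contrast by edgeR on 6 libraries, where 0% of all 13883 genes were called, and 1 of them, Itgb5, had an unadjusted p under 0.05. Over all genes 742 were higher and 881 lower at an unadjusted p under 0.05, DESeq2 called 149 (1.07%) and limma-voom 0, and neither called any of the 6. In CPM 2 of the 6 genes (Itgb1 and Itgb5) were higher without overlap and 0 were lower, where 20.1% of all genes were higher and 19.1% lower without overlap. With the mouse as a block on the 4 Ly6G-high libraries, which leaves 1 residual degree of freedom, all 6 were called, beside 28.2% of 13419 genes. There Itgb5 (0.67, adjusted p = 3.4e-07), Itgav (0.30, adjusted p = 0.0165) and Itgb1 (0.28, adjusted p = 0.025) were higher, and Itgb3 (-1.09, adjusted p = 6.8e-07), Cd44 (-0.62, adjusted p = 2.9e-06) and Spp1 (-0.31, adjusted p = 0.0177) were lower in the binders. There 13.6% of genes were called higher and 14.6% lower. With the block on all 6 libraries 0% of genes were called, and over 16 alternatives the highest adjusted p was 0.970 for Spp1, 0.888 for Cd44, 0.973 for Itgav, 0.930 for Itgb1, 0.807 for Itgb3 and 0.665 for Itgb5. Leaving out 1 library moved Itgb3 to -1.90 (without binder replicate 1) and -0.39 (without non-binder replicate 1), and Cd44 to -1.03 and -0.28 without the same libraries. The sign of Itgav turned without binder replicate 1 (-0.06) or non-binder replicate 2 (-0.14). In this contrast 8 of 8 neutrophil markers had negative log2 fold changes (median -1.45) and 10 of 10 macrophage markers positive ones (median 1.09), none called, and their part in the receptor values was not tested.

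Ly6G-low against Ly6G-high binders, both of which bind T1, differed in Itgb3, and Cd44 lay just short of the threshold. Itgb3 fell in Ly6G-low cells, to 2.88 ± 0.395 CPM, against 10.1 ± 5.88 CPM in Ly6G-high binders (SD, n = 2 each), a 3.50-fold difference (log2 fold change -1.81 ± 0.54, edgeR adjusted p = 0.0333). Cd44 was 2.16-fold lower, at 949 ± 21.9 CPM against 2046 ± 615 CPM (log2 fold change -1.11 ± 0.38, edgeR adjusted p = 0.053). Itgb5 had a log2 fold change of -0.43 ± 0.20 (edgeR adjusted p = 0.113), Itgav -0.36 ± 0.32 (edgeR adjusted p = 0.391) and Itgb1 0.06 ± 0.24 (edgeR adjusted p = 0.856).

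Thus 1 of the 5 receptor genes was called, and it was lower, where 43.0% of all tested genes were called, 18.8% higher and 24.3% lower. In CPM 3 of the 5 (Cd44, Itgb3 and Itgb5) were lower without overlap and 0 were higher, where 39.6% of all genes were lower and 41.6% higher without overlap. With the mouse as a block on 6 libraries Cd44 was called too (-1.06, adjusted p = 0.0211), beside 48.6% of all genes, with 26.9% lower, and over 16 alternatives its adjusted p ran between 0.00157 and 0.270, with a call in 12. The call of Itgb3 was lost without Ly6G-low replicate 1 (-1.96, adjusted p = 0.108), Ly6G-low replicate 2 (-1.76, adjusted p = 0.115) or binder replicate 1 (-1.04, adjusted p = 0.192), with limma-voom (-1.68, adjusted p = 0.0625) and without a filter (-1.80, adjusted p = 0.0819), in an overall range between 0.00126 and 0.192, and without binder replicate 2 Itgb3 was at -2.40. Both genes stayed lower under every scaling tried, whereas with library totals Itgav (0.24) and Itgb5 (0.15) turned positive and Itgb1 was called higher (0.65, adjusted p = 0.0417), beside 53.6% of all genes called, 37.5% higher and 16.1% lower. Relative to the median gene, the differences with library totals were -1.12 for Cd44, -1.79 for Itgb3 and 0.04 for Itgb1. Here 10 of 10 macrophage, 8 of 8 neutrophil and 4 of 4 tested osteoclast markers were called lower in Ly6G-low cells, and their part in the receptor values was not tested.

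The contrast of Ly6G-low cells with Ly6G-high non-binders gave the widest differences of Itgb3 and Cd44 among the 3 contrasts. In the Ly6G-low cells Itgb3 fell to a mean of 2.88 ± 0.395 CPM, against 22.4 ± 13 CPM in the non-binders (SD, n = 2 each), 7.71-fold lower (log2 fold change -2.95 ± 0.55, edgeR adjusted p = 0.00859). Cd44 fell to 949 ± 21.9 CPM, against 3297 ± 1161 CPM, 3.48-fold lower (-1.80 ± 0.39, edgeR adjusted p = 0.0146). Itgb1 had a log2 fold change of 0.29 ± 0.24 (edgeR adjusted p = 0.353), Itgb5 0.19 ± 0.20 (edgeR adjusted p = 0.457) and Itgav -0.14 ± 0.32 (edgeR adjusted p = 0.738).

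These are 2 of 5 receptor genes called lower, where 39.8% of all tested genes were called, 16.1% higher and 23.8% lower. In CPM 2 of the 5 (Itgb1 and Itgb5) were higher and 2 (Cd44 and Itgb3) lower without overlap, where 43.6% of all genes were higher and 36.6% lower without overlap. The call of Cd44 was lost without Ly6G-low replicate 1 (-1.82, adjusted p = 0.103) or replicate 2 (-1.79, adjusted p = 0.0748), and that of Itgb3 without Ly6G-low replicate 1 (-3.09, adjusted p = 0.0501), while without non-binder replicate 1 Itgb3 was at -2.20 and still called (adjusted p = 0.023). With library totals both stayed lower (Cd44 -0.91, Itgb3 -2.02), but Itgb1 (1.12, adjusted p = 0.00662), Itgb5 (1.02, adjusted p = 0.0101) and Itgav (0.75, adjusted p = 0.0269) were called higher, with Itgav changing sign, and 5 of 5 were then called, beside 65.9% of all genes, 52.3% higher and 13.6% lower. Over 16 alternatives the adjusted p ran between 1.1e-07 and 0.103 for Cd44 and between 4.2e-16 and 0.0501 for Itgb3. Relative to the median gene those differences were -1.82 for Cd44, -2.94 for Itgb3, 0.21 for Itgb1, 0.10 for Itgb5 and -0.16 for Itgav. In this contrast 8 of 8 neutrophil, 4 of 10 macrophage and 4 of 4 tested osteoclast markers were called lower in Ly6G-low cells, and their part in the receptor values was not tested. This contrast and the preceding one share the Ly6G-low libraries, so they are not independent of each other.

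**Figure D3:**
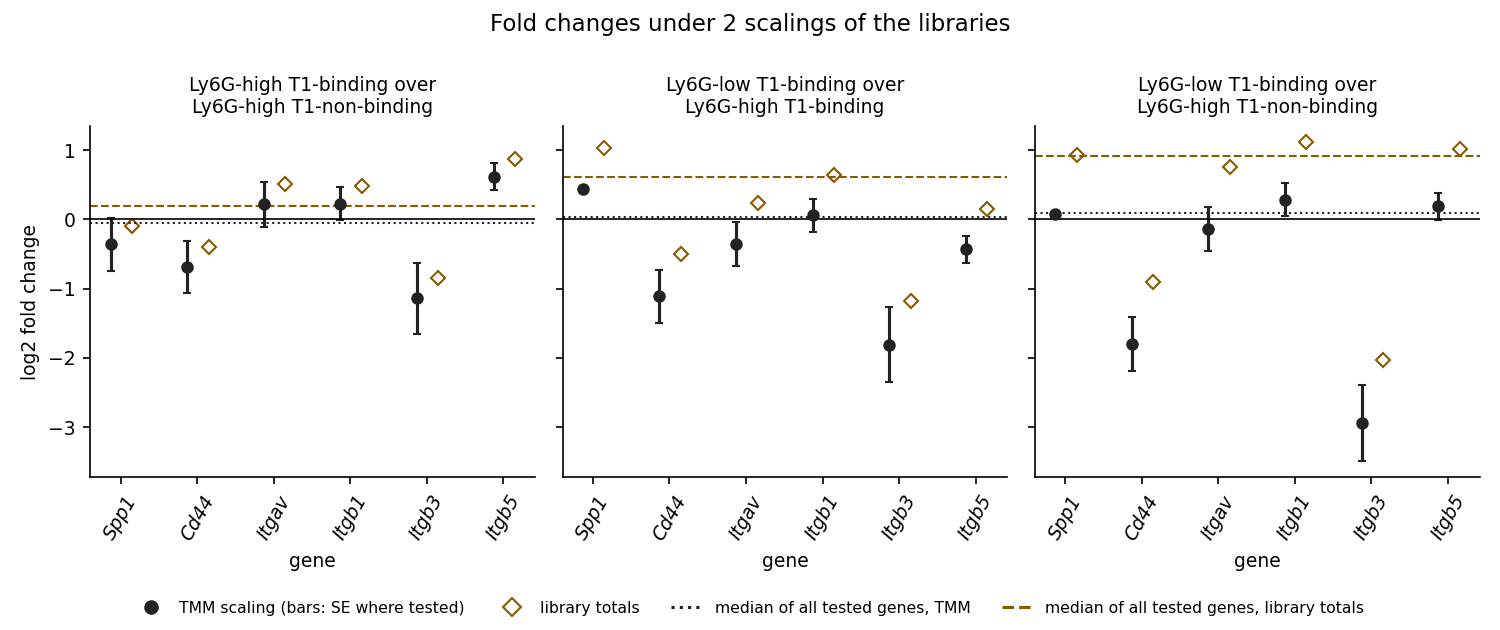
Log2 fold changes of the 6 genes in the 3 contrasts, with TMM scaling (filled circles, bars give the SE where a test was made) and with library totals (open diamonds). Dotted and dashed lines mark the median of all 13883 tested genes under each scaling, and Cd44 and Itgb3 lie below both lines in all 3 panels.

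Ratios between transcripts of the same library do not depend on the scaling of libraries, and some of them separated all 3 populations while others overlapped. How many other gene pairs separate them was not computed. Among single genes in CPM, 41.6% were higher and 39.6% lower without overlap in Ly6G-low cells against Ly6G-high binders. The ratios reuse the levels given above and are not separate observations. The Cd44 to Itgb1 ratio of FPKM was 0.939 and 0.905 in Ly6G-low, 2.32 and 1.78 in Ly6G-high binders and 4.65 and 3.08 in Ly6G-high non-binders. The 3 populations did not overlap, and within a mouse the ratio in Ly6G-low cells was 0.405 (mouse 1) and 0.510 (mouse 2) of that in Ly6G-high binders. The Itgb3 to Itgb5 ratio, between the 2 beta chains best known as partners of alpha v, was 0.0101 and 0.00680 in Ly6G-low, 0.0312 and 0.0124 in Ly6G-high binders and 0.101 and 0.0439 in Ly6G-high non-binders, again without overlap.

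The Itgb5 to Itgb1 ratio peaked in Ly6G-high binders, at 0.415 and 0.513, against 0.296 and 0.360 in Ly6G-low and 0.341 and 0.363 in Ly6G-high non-binders. For ligand against receptor, Spp1 stood at 38.5 and 30.9 times Cd44 in Ly6G-low, 11.2 and 13.1 times in Ly6G-high binders and 8.53 and 11 times in Ly6G-high non-binders, while Spp1 over Itgb1 was 36.2 and 27.9, 25.9 and 23.2, and 39.7 and 34. The Spp1 to Cd44 ratio was therefore highest in Ly6G-low cells without overlap, and the Spp1 to Itgb1 ratio was lowest in Ly6G-high binders without overlap. Spp1 was chosen for its level in the Ly6G-low libraries, so its ratios there are a description and not a separate finding. For Itgb5 to Itgb1 and for Spp1 to Itgb1, Ly6G-low cells and Ly6G-high non-binders overlapped. The Itgav to Itgb5 ratio, at 0.204 and 0.223 in Ly6G-low, 0.246 and 0.165 in Ly6G-high binders and 0.338 and 0.198 in Ly6G-high non-binders, overlapped in all 3 contrasts. The Itgav to Itgb1 ratio, at 0.0604 and 0.0804, 0.102 and 0.0845, and 0.115 and 0.0717 in the same populations, was lower without overlap in Ly6G-low cells than in Ly6G-high binders and overlapped in the other contrasts. With 2 libraries a group, no exact permutation test of a ratio can give a p below 0.333, so none was made.

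**Figure D4:**
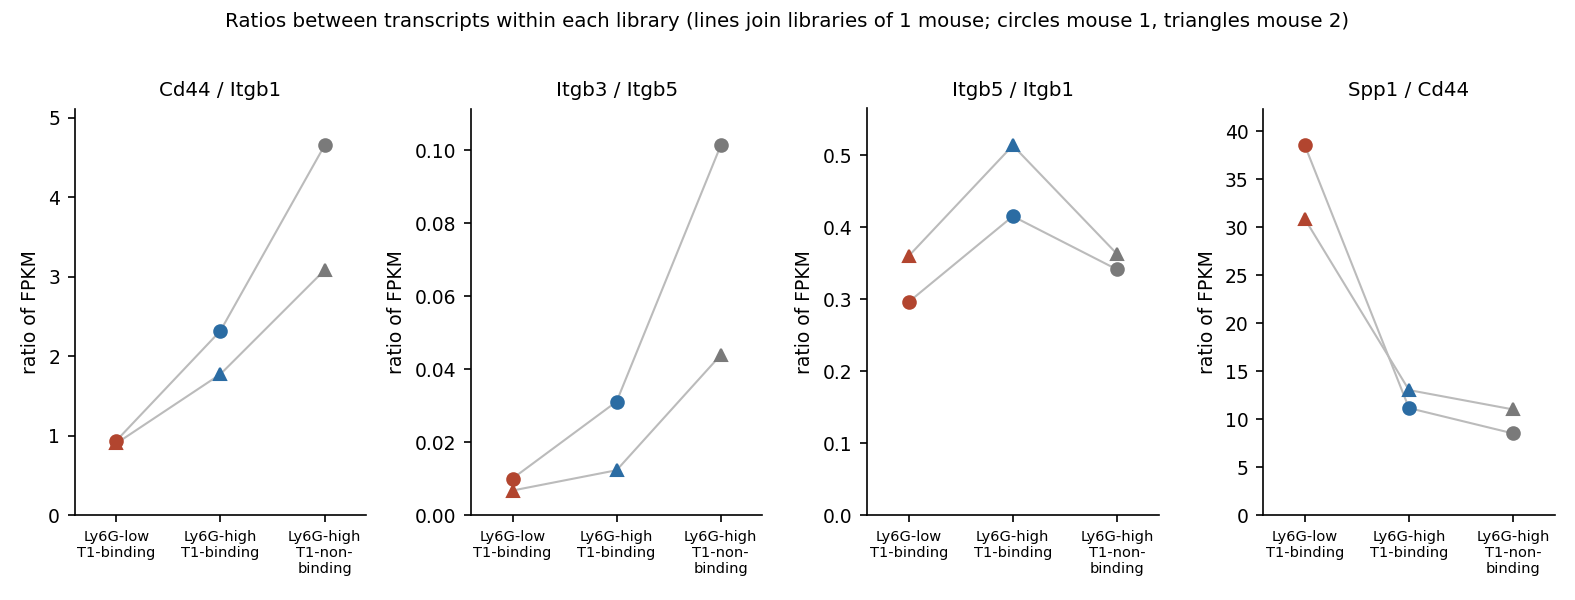
Ratios of FPKM within each library for Cd44 to Itgb1, Itgb3 to Itgb5, Itgb5 to Itgb1 and Spp1 to Cd44, by sorted population, with grey lines joining the libraries of a mouse. Cd44 to Itgb1 and Itgb3 to Itgb5 are lowest in Ly6G-low cells and highest in Ly6G-high non-binders in both mice, Itgb5 to Itgb1 is highest in Ly6G-high binders, and Spp1 to Cd44 is highest in Ly6G-low cells. Spp1 was chosen for its level in the Ly6G-low libraries.

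As shares of the summed FPKM of the 3 beta chains, Itgb1 made up 75.2 ± 2.53% in Ly6G-low, 67.9 ± 2.99% in Ly6G-high binders and 72.6 ± 0.112% in Ly6G-high non-binders (SD, n = 2 each). Itgb5 made up 24.6 ± 2.56%, 31.4 ± 3.33% and 25.6 ± 1.07% in the same populations. Itgb3 made up 0.205 ± 0.0355%, 0.662 ± 0.345% and 1.83 ± 0.959%, and stayed the minor chain in every library.

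Counts of called genes in the lists that follow stand beside the shares of all tested genes, of which 18.8% were called higher and 24.3% lower against Ly6G-high binders, and 16.1% higher and 23.8% lower against Ly6G-high non-binders. The other receptor subunits reported for osteopontin are Itga4, Itga5, Itga8, Itga9, Itgb6 and Itgb7, of which 5 could be tested and Itgb6 had at most 7 reads in a library. Itga9, the alpha chain that binds thrombin-cleaved osteopontin, was lower in Ly6G-low cells than in Ly6G-high binders, with 10.7 and 19.0 CPM against 64.6 and 48.5 CPM (log2 fold change -1.93 ± 0.30, edgeR adjusted p = 0.00432). The binders were the population that stood out for Itga9, at 7.90 and 6.93 FPKM. Its Ly6G-low values (2.13 and 3.76 FPKM) overlapped those of Ly6G-high non-binders (2.19 and 2.93 FPKM). Itga4, which pairs with Itgb1 or Itgb7, was also lower in Ly6G-low cells than in Ly6G-high binders, with 3.95 and 12.3 CPM against 29.4 and 23.8 CPM (-1.71 ± 0.48, edgeR adjusted p = 0.028), a call lost with library totals (-1.12, adjusted p = 0.0666). Of these 5 genes 0 were higher and 2 lower against Ly6G-high binders, with a median log2 fold change of -1.71 beside 0.03 for all genes, and 1 (Itga4) was lower against Ly6G-high non-binders, with a median of -0.63 beside 0.09. With the mouse as a block on the 4 libraries of that second contrast 3 were called lower, and with library totals 0 were called lower and 2 higher. Itga5, the fibronectin receptor alpha chain, was abundant at 61.1 and 69.2 FPKM in Ly6G-low, 43.1 and 46.7 FPKM in Ly6G-high binders and 25.1 and 37.0 FPKM in Ly6G-high non-binders, and passed the test in no contrast on 6 libraries. With TMM scaling Itga5 was close to level between Ly6G-low and Ly6G-high binders, at a log2 fold change of -0.06 with the mouse as a block on their libraries alone.

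Among the 16 remaining integrin genes 14 were tested, and 4 were called higher and 6 lower in Ly6G-low against Ly6G-high binders (median log2 fold change 0.17 beside 0.03 for all genes). Those lower included the leukocyte alpha chains Itgal, with 13.2 and 26.6 CPM against 213 and 164 CPM (-3.24 ± 0.44, edgeR adjusted p = 0.00347), and Itgax, with 9.27 and 11.1 CPM against 88.3 and 53.8 CPM (-2.80 ± 0.42, edgeR adjusted p = 0.00413). Those higher included the laminin receptor chains Itga6, with 189 and 209 CPM against 74.1 and 89.8 CPM (1.28 ± 0.21, edgeR adjusted p = 0.00526), and Itgb4, with 132 and 91.7 CPM against 37.7 and 39.9 CPM (1.53 ± 0.26, edgeR adjusted p = 0.00553). Against Ly6G-high non-binders 3 were higher and 6 lower (median -0.02 beside 0.09), and with library totals the counts were 5 and 5 in the first contrast and 5 and 4 in the second. Itgam and Itgb2, which also stand in the marker lists, were called lower in both, as were 8 of 8 pan-leukocyte markers, whose part was not tested. Among these values Itgb3 lay on the lower side, and Itgb1, Itgb5 and Itgav lay between the extremes.

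**Figure D5:**
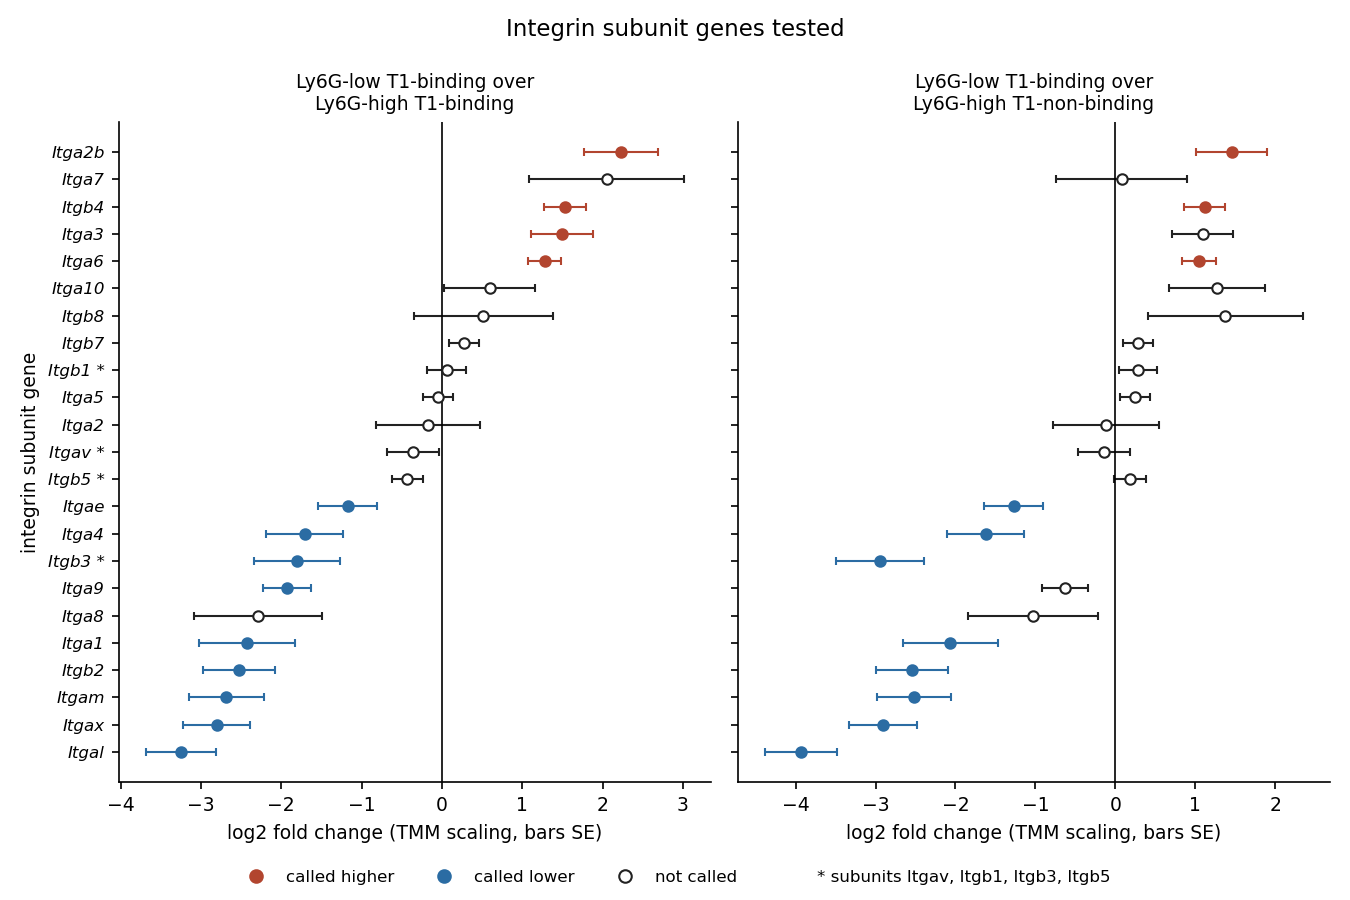
Log2 fold changes (TMM scaling, bars give the SE) of the tested integrin subunit genes in Ly6G-low cells over each Ly6G-high population, with called genes filled and asterisks on Itgav, Itgb1, Itgb3 and Itgb5. Itgal, Itgax, Itgam and Itgb2 lie toward the lower end and Itga6 and Itgb4 toward the upper end in both panels, and of the asterisked genes Itgb3 alone is called in these panels.

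Of Spp1's own family of acidic bone-matrix glycoproteins (Ibsp, Dmp1, Dspp and Mepe), Dmp1 could be tested and the other 3 had at most 2 reads in a library. Dmp1 rose in Ly6G-low cells, with 84.8 and 64.9 CPM, against 27.9 and 35.7 CPM in Ly6G-high binders (1.23 ± 0.21, edgeR adjusted p = 0.00559) and 35.2 and 37.5 CPM in Ly6G-high non-binders (1.04 ± 0.21, edgeR adjusted p = 0.0108), a call that was lost without Ly6G-low replicate 1.

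Enzymes that phosphorylate, dephosphorylate, cross-link or cut osteopontin included more that fell than rose in the Ly6G-low cells. Of 8 tested of 11, 1 was called higher and 5 lower against Ly6G-high binders (median log2 fold change -1.72 beside 0.03 for all genes), and 1 higher and 3 lower against Ly6G-high non-binders (median -0.96 beside 0.09). Mmp9, a protease that cleaves osteopontin, had 97.9 and 84.9 CPM in Ly6G-low, against 945 and 602 CPM in Ly6G-high binders (-3.08 ± 0.43, edgeR adjusted p = 0.00365). Acp5, the phosphatase TRAP that dephosphorylates osteopontin, had 19.3 and 16.3 CPM against 52.5 and 53.8 CPM (-1.58 ± 0.17, edgeR adjusted p = 0.00313). Phex, an endopeptidase that degrades osteopontin, was the gene called higher, with 11.6 and 11.5 CPM against 3.77 and 3.87 CPM (1.60 ± 0.20, edgeR adjusted p = 0.00324). With library totals, 2 were called higher and 2 lower against Ly6G-high non-binders, where Acp5 lost its call (-0.26, adjusted p = 0.355). Fam20c, the kinase that phosphorylates secreted osteopontin, had 27.1 and 25.2 FPKM in Ly6G-low, 28.7 and 25.0 FPKM in Ly6G-high binders and 15.2 and 15.3 FPKM in Ly6G-high non-binders. With TMM scaling it was lower in Ly6G-low than in Ly6G-high binders, at a log2 fold change of -0.63 with the mouse as a block on their libraries alone.

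Other ligands that share the receptors with osteopontin were called in both directions. Of 11 tested ligands of alpha v or beta 1 integrins, 4 were higher and 3 lower in Ly6G-low against Ly6G-high binders (median 1.04 beside 0.03 for all genes), and 2 were higher and 2 lower against Ly6G-high non-binders (median 0.51 beside 0.09). Lamb1, a laminin chain, had 260 and 263 CPM in Ly6G-low, against 87.1 and 102 CPM in Ly6G-high binders (1.47 ± 0.19, edgeR adjusted p = 0.00337). Tgfb1, whose latent form is bound by alpha v integrins, had 66.0 and 75.7 CPM against 324 and 226 CPM (-1.96 ± 0.31, edgeR adjusted p = 0.00456). Fn1, fibronectin, had 358 and 323 FPKM in Ly6G-low, 386 and 191 FPKM in Ly6G-high binders and 182 and 135 FPKM in Ly6G-high non-binders. With TMM scaling its log2 fold change in Ly6G-low over Ly6G-high binders was -0.27, with the mouse as a block on their libraries alone.

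On the CD44 side, 12 of 13 genes for hyaluronan turnover and other CD44 ligands were tested, and 5 were higher and 5 lower against Ly6G-high binders, with 3 higher and 4 lower against Ly6G-high non-binders. Their median log2 fold changes were -0.18 and -0.45, beside 0.03 and 0.09 for all genes, and with library totals they were positive, at 0.40 and 0.35. Srgn, the proteoglycan serglycin, which can bind CD44, fell furthest on this list, with 307 and 269 CPM in Ly6G-low, against 7030 and 4232 CPM in Ly6G-high binders (-4.29 ± 0.51, edgeR adjusted p = 0.00316). Layn, layilin, a hyaluronan receptor, was higher, with 21.7 and 20.8 CPM against 6.95 and 8.28 CPM (1.48 ± 0.21, edgeR adjusted p = 0.0036). Among 5 tested partners of CD44 in the cell, 2 were called lower in each contrast, Msn (moesin, which links CD44 to actin) and Cd74 (which signals with CD44). The call of Cd74 against Ly6G-high non-binders was lost with library totals (-0.84, adjusted p = 0.0664) and without Ly6G-low replicate 1 or non-binder replicate 1. Msn had 177 and 242 CPM in Ly6G-low, 1895 and 1188 CPM in Ly6G-high binders and 2630 and 1294 CPM in Ly6G-high non-binders. Esrp1, a splicing factor that favours variant-exon CD44 in epithelium, had no read in any library, and Esrp2 at most 5.

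Of 17 tested genes for the machinery inside the cell that integrins act through, 7 were higher and 6 lower in Ly6G-low against Ly6G-high binders (median 0.29 beside 0.03 for all genes, of which 18.8% were called higher and 24.3% lower). Against Ly6G-high non-binders 6 were higher and 6 lower (median 0.24 beside 0.09 for all genes, of which 16.1% were called higher and 23.8% lower), and with library totals the counts became 9 and 4, and 10 and 3. Ptk2, focal adhesion kinase, had 105 and 105 CPM in Ly6G-low, against 37.6 and 46.8 CPM in Ly6G-high binders (1.31 ± 0.21, edgeR adjusted p = 0.00515). Its relative Ptk2b, the kinase PYK2, ran the other way, with 22.5 and 29 CPM against 197 and 139 CPM (-2.70 ± 0.36, edgeR adjusted p = 0.00342). Likewise Parva, alpha-parvin, was higher (1.54 ± 0.25, edgeR adjusted p = 0.00519), and Fermt3, the kindlin of blood cells, was lower (-2.27 ± 0.31, edgeR adjusted p = 0.00354). In this contrast pan-leukocyte markers were called lower (8 of 8) and fibroblast markers higher (3 of 8), and their part in these values was not tested.

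Of 11 tested transcription factors known to act on the Spp1 promoter, 1 was called higher and 6 lower in Ly6G-low against Ly6G-high binders (median -0.94 beside 0.03 for all genes, of which 18.8% were called higher and 24.3% lower). Against Ly6G-high non-binders 0 were higher and 7 lower by edgeR (median -1.12 beside 0.09 for all genes, of which 16.1% were called higher and 23.8% lower), which with library totals became 3 and 5, and 2 and 4. Fos, an AP-1 subunit, had 263 and 331 CPM in Ly6G-low, 1400 and 1155 CPM in Ly6G-high binders and 2266 and 1439 CPM in Ly6G-high non-binders. Fosl1, another AP-1 subunit, was the gene called higher, with 218 and 218 CPM against 122 and 111 CPM in Ly6G-high binders (0.91 ± 0.18, edgeR adjusted p = 0.00844). Runx1, of the family whose motif is printed in capitals above, had 57.1 and 70.4 CPM in Ly6G-low, against 159 and 131 CPM in Ly6G-high binders (-1.19 ± 0.25, edgeR adjusted p = 0.0111), and Vdr, the vitamin D receptor, had 20.2 and 29.7 CPM against 81.8 and 78.4 CPM (-1.68 ± 0.24, edgeR adjusted p = 0.00388).

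Over these 9 lists, 58 calls were made against Ly6G-high binders and 47 against Ly6G-high non-binders, and 0 changed sign when any library was left out. Without Ly6G-low replicate 1, 24 of the 58 and 13 of the 47 calls were kept. Among the calls described above, this ended those of Itga4, Itgam, Itgb2, Fosl1, Fos, Cd74 and Runx1 against Ly6G-high binders and of Itga4, Dmp1, Itgam, Itgb2 and Cd74 against Ly6G-high non-binders. Against Ly6G-high binders the calls of Itga9, Dmp1, Mmp9, Acp5, Phex, Itgal, Itgax, Itga6, Itgb4, Lamb1, Tgfb1, Srgn, Layn, Msn, Ptk2, Ptk2b, Parva, Fermt3 and Vdr were kept without each library in turn. Between the Ly6G-high populations 0 of the list genes were called on 6 libraries by edgeR. The mouse as a block on 4 libraries, with 1 residual degree of freedom, called 28.2% of 13419 genes. There Itga9 (1.33 ± 0.12, edgeR adjusted p = 9.8e-11), Itga8 (1.31 ± 0.27, edgeR adjusted p = 0.000244) and Itga5 (0.35 ± 0.09, edgeR adjusted p = 0.00491) were higher in the binders. Itga4 and Itgb7 of the same list were not called. Of the enzymes acting on osteopontin, Mmp9 (-0.59 ± 0.10, edgeR adjusted p = 8.0e-06) and Tgm2 (-0.41) were called lower in the binders. Mmp12 (1.35 ± 0.10, edgeR adjusted p = 4.6e-13), F13a1 (1.07), Fam20c (0.60) and Acp5 (0.53) were called higher, and Mmp3 and Phex were not called. In this contrast 10 of 10 macrophage markers had positive log2 fold changes on 6 libraries, and their part in these values was not tested.

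Genes whose pattern over the 6 libraries lay nearest to each of the 6 were found among 8143 genes by the root mean square difference of centred log2(CPM + 1). Nearest to Spp1 were Anxa2 (0.07), a calcium-dependent membrane-binding protein, Arfgap3 (0.08), Ppp1r37 (0.09), Dusp14 (0.09) and Asap1 (0.10). For Cd44 they were Ier2 (0.06), an immediate-early gene, Riok3 (0.07) and Phf21a (0.07), and for Itgb3 they were Rlf (0.05), Ifrd1 (0.06) and Zfp597 (0.07). For Itgb1 they were Sestd1 (0.03), Ctsl (0.04), the lysosomal protease cathepsin L, and Bzw1 (0.04). Nearest to Itgb5 were Prkacb (0.04), Spcs3 (0.05) and Cttnbp2nl (0.06), and nearest to Itgav were Kif3b (0.07), C1galt1 (0.08) and Mef2a (0.08). The 6 libraries share 2 mice and 3 gates, so these distances are a description with no test.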

How the data were processed

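Read counts per gene and FPKM were deposited by the authors for 6 libraries of mouse tumour-derived cells. The submitters' processing notes name build mm10 and the tools HTSeq 0.6.1, STAR 2.5 and TopHat, and the annotation and strand settings are not given in the sources used here. The deposited FPKM equal the deposited count over a fixed length per gene and over the library's own total (largest relative deviation 9.3e-12 over 19175 genes). Total counts were 23595976 to 28045025.

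Counts were filtered by filterByExpr, scaled by TMM and tested in 1 fit of all libraries, without a mouse term (3 residual degrees of freedom), by edgeR 4.0.16's quasi-likelihood test (R 4.3.3), with Benjamini-Hochberg adjustment over 13883 genes and a threshold of 0.05, on which a gene is said to be called. SE is the standard error of the log2 fold change. Replicates are separate mice. Samples of the same mouse are paired because the source labels name the mouse that bore the tumour of each, and their deviations from the group mean correlated at 0.51 between the Ly6G-high populations, -0.01 between Ly6G-low and Ly6G-high binders and -0.04 between Ly6G-low and Ly6G-high non-binders. Alternatives were library totals, RLE and upper-quartile factors, DESeq2 1.42.0, limma-voom (limma 3.58.1), no filter, at least 50 counts in 2 libraries, the compared groups alone, the mouse as a block, and each library left out.

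The 6 genes, the lists and the rule for named genes (in each list and contrast the called genes with the smallest p, up to 3 a direction, and without calls the 2 smallest p) were chosen with earlier results of these data known. Of the genes given by this rule a part is named, selected with the values known, as are Fn1, Itga5, Esrp1 and Esrp2, which lie outside it. Ctgf, Cyr61, Emr1 and Tmem2 are older symbols in the files.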

Additional observations from a re-analysis of the deposited data

How the results depend on the processing

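Over the 3 contrasts, 246 member values under alternatives were unchanged, 22 passed the threshold anew, 8 no longer passed and 10 tested values changed sign. For tested values, unchanged means the same direction and side of the threshold. The counts include the contrasts of Spp1 with Ly6G-low cells, which carry no test, and 2 of those values moved. Ly6G-high binders against non-binders gave 149 calls with DESeq2, 71 without a filter, and 3778 with the mouse as a block on the 4 libraries, where 6 members were called, and 0 with each library left out. The block on 6 libraries changed no member call there, and in the contrasts with Ly6G-low cells the block changed no member call other than that of Cd44 against binders. Against Ly6G-high binders 2 members were called with RLE, upper-quartile factors, library totals (1 higher), at least 50 counts, the compared groups alone and both mouse blocks, and 3 with DESeq2, in place of 1. Without each library in turn 0 to 2 members and 1972 to 6731 genes were called there, with 1972 without Ly6G-low replicate 1, 3105 without replicate 2 and 2512 without binder replicate 1, in place of 5971. Against Ly6G-high non-binders library totals called 5 members and 9145 genes (7262 higher and 1883 lower), in place of 2230 higher and 3298 lower, and leaving out libraries gave 0 to 2 members and 1527 to 6282 genes, with 1527 without Ly6G-low replicate 1, 2418 without replicate 2 and 2369 without non-binder replicate 1, in place of 5528. Signs turned for Itgav (0.24 and 0.75 with library totals, 0.083 with upper-quartile factors against non-binders, -0.14 to 0.69 between the Ly6G-high gates and -0.49 to 0.33 against non-binders with libraries left out), Itgb5 (0.15 with library totals), Itgb1 (-0.15 to 0.18 against Ly6G-high binders with libraries left out) and Spp1 (-0.12 to 0.27 against non-binders with libraries left out, a contrast in which it was not tested). By read counts in place of FPKM the beta shares in Ly6G-low cells, Ly6G-high binders and Ly6G-high non-binders were 78.8%, 72.0% and 75.6% for Itgb1, 0.325%, 1.06% and 2.89% for Itgb3 and 20.9%, 27.0% and 21.6% for Itgb5, since read counts are not divided by gene length. With each library left out the shares were those of the remaining library. Other causes were not tested. A library left out leaves a lone sample assumed to vary like the other groups. Itgb3, with 90 to 487 reads a library, is the member that depth limits most.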
